A study of Rattus norvegicus with 12 samples.

Results

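The genes described here encode leukocyte surface proteins named by the CD nomenclature and the alpha and beta subunits of integrins. They were chosen by name from the platform annotation, as every gene whose single symbol is Cd followed by a number or begins with Itga or Itgb, with Cd3d and Cd37 left out. The rule gave 25 of the 3939 named genes, measured by 30 of 7200 probes, and all 25 entered the tests. It used no measured value, though the genes were proposed with earlier results of these data known. By their known roles they comprise 7 integrin subunits, 5 tetraspanins, 5 lymphocyte receptors or antigen-presenting molecules, 5 small glycoproteins, and 3 intracellular proteins that carry such a name only because of a binding partner. Many familiar CD antigens, Cd4, Cd8a, Cd14 and Itgam among them, are not among these genes and were not analysed here.

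Rats were given lipopolysaccharide (LPS), the outer membrane component of Gram-negative bacteria, and total RNA of 3 rats at 2 h and 3 at 6 h was set against a control pool of the same time on 2-colour arrays. Each rat has 2 arrays, 1 named fluor, with the pool in channel 1 and the LPS sample in the other channel, and 1 named flip, with the channels exchanged, which were averaged, so n = 3 rats at each time. Blood as the source is given by the series title only. The strain, sex, age, LPS dose and route of the rats, what the control animals received and how many made up a pool are not stated in the labels. Values by rat are given in the order of rats 1, 2 and 3 at 2 h and 2, 4 and 6 at 6 h, and it is not said whether the rats numbered 2 are one animal. A value is the log2 of the ratio of LPS to pool: 0 is no difference and 0.20 is about 15% higher. A ratio gives no level, so the labelled tissue could not be checked against its markers and one gene cannot be called more abundant than another. In RNA from blood, fewer cells of a type and less RNA per cell cannot be told apart.

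Reading the ratios as LPS over pool is likely right but rests on known LPS-induced genes, since no label states a direction. Of 8 such genes measured, 5 had positive values throughout the 12 arrays of both orientations (Zfp36, Lcn2, Il1b, Irf1 and Il1r2). Sod2 was positive on 10 arrays, Tnf on 8 and Nfkbia on 3. Arrays of one orientation and time correlated at r = 0.43 to 0.66 over all probes, whereas the fluor and flip array of a rat correlated at -0.23 to 0.25, so a difference between orientations runs through the data beside the response.

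Integrins are pairs of an alpha and a beta chain that bind matrix proteins or ligands on other cells, and they let blood leukocytes stop on the vessel wall and leave the circulation. Tetraspanins organise integrins and other receptors into membrane domains. The remaining CD antigens include co-receptors of T and B lymphocytes, regulators that protect the cell from complement or from being engulfed, and heavily glycosylated proteins with roles in adhesion.

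Changes in these genes were small, as they were in most named genes. At 2 h, 1 of 25 rose (Itga6) and 1 fell (Cd48), where 9.34% of all named genes rose and 9.82% fell (limma, adjusted p under 0.05 over all 3939 genes). By 6 h, 4 rose (Cd24, Cd55, Itga6 and Itgb1bp2) and 4 fell (Itgb1, Cd164, Itgal and Cd7), against 8.3% and 10.7% of all genes. No gene of the set changed 2-fold at either time, where 21 of 3939 named genes did at each time. The set's median was -0.0093 at 2 h and -0.000077 at 6 h, beside -0.0070 and 0.0069 for all genes. Its median absolute value was 0.057 at 2 h and 0.079 at 6 h, beside 0.073 and 0.074 for all genes. No gene of the set passed for the difference of 6 h minus 2 h (limma, adjusted p under 0.05), where 0.33% of all genes were higher at 6 h and 0.178% lower. At an unadjusted p under 0.05 in the same fit the set had 6 of 25, beside 569 of 3939 named genes.

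**Figure D1:**
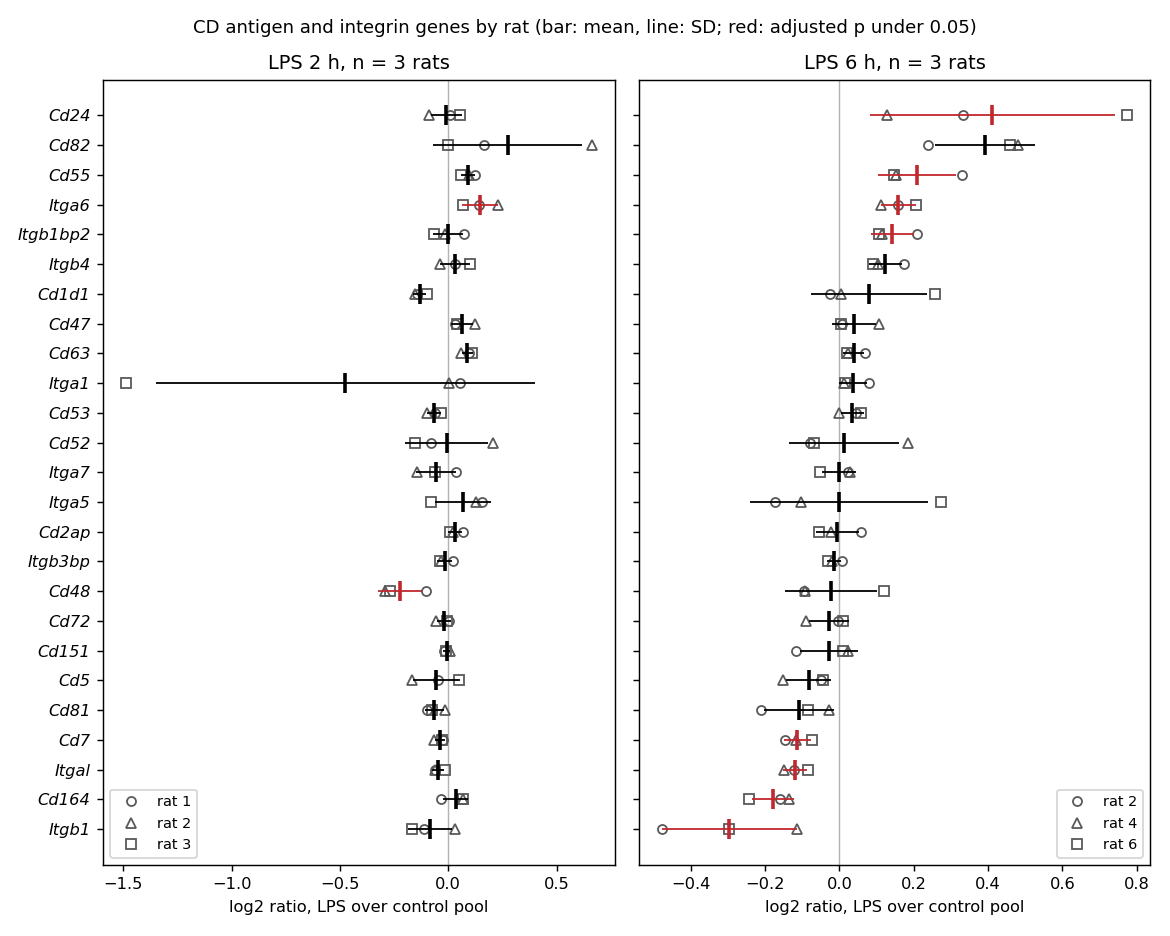
Log2 ratio of LPS to control pool for each of the 25 genes (rows, ordered by the 6 h mean) at 2 h (left) and 6 h (right); open symbols are rats, vertical bars are means, horizontal lines are the SD over 3 rats and red marks adjusted p under 0.05. Most means lie within 0.2 of 0, Cd24 and Cd82 have the highest means at 6 h (0.41 and 0.39), and the low Itga1 mean at 2 h comes from 1 rat at -1.49.

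Calls at 6 h moved with the rats included. Without 6 h rat 2, 0 of the 25 passed (8 at an unadjusted p under 0.05), while the share of all genes called fell to 7.77%. Without 6 h rat 6, Cd55 alone passed, with 9.9% of all genes called, and the count was 4 without 2 h rat 1 (15.9% of all genes called) or without 6 h rat 4 (10.5%). With every rat in, 19.0% of all genes were called at 6 h and 19.2% at 2 h. Leaving out the fluor array of 2 h rat 3, which reads far from the others for Itga1, ended both 2 h calls, Cd48 (-0.18; adjusted p = 0.138) and Itga6 (0.11; adjusted p = 0.240). It also ended 5 of the 8 calls at 6 h, where the means stay as they were, with adjusted p of 0.0533 for Itgal, 0.0614 for Cd24, 0.0650 for Cd7, 0.0964 for Itga6 and 0.107 for Itgb1bp2. Cd164, Cd55 and Itgb1 kept theirs. Over all genes that setting called 5.56% at 2 h and 12.6% at 6 h. The 8 genes called at 6 h kept one sign on all 6 arrays of that time. The calls were made on these same arrays and favour such genes, so this is no separate support. Across the set 5 genes lay above 0 on all 6 arrays at 6 h (the 4 that rose, and Cd82), against 10.2% of all genes, and 5 lay below (the 4 that fell, and Cd81), against 12.6%. At 2 h only Cd55 lay above 0 on all 6 arrays, against 10.6% of all genes. Cd48, Cd1d1 and Itgal lay below, against 11.5%.

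Among the integrin subunits, Itgb1 (CD29), the beta chain shared by Itga1, Itga5, Itga6 and Itga7, had the lowest mean at 6 h. Its 3 rats then stood at -0.48, -0.11 and -0.30, a mean of -0.30 ± 0.18 (SD, n = 3; 1.23-fold lower; adjusted p = 0.0267). At 2 h they stood at -0.11, 0.029 and -0.17 (mean -0.083 ± 0.10; adjusted p = 0.412). All 6 h rats were thus below 0, but the times overlapped, and the difference of -0.21 ± 0.10 (SE) did not pass (adjusted p = 0.383). The call was lost without 6 h rat 2 (-0.21; adjusted p = 0.136), without 6 h rat 6 (-0.30; adjusted p = 0.0907) and once neighbouring probes were subtracted (-0.19; adjusted p = 0.124), in a range over 20 alternatives of 0.00384 to 0.136.

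Itgal (CD11a) is the alpha chain of LFA-1, the leukocyte integrin that binds ICAM-1. Its rats read -0.062, -0.063 and -0.014 at 2 h and -0.12, -0.15 and -0.084 at 6 h. Every 6 h rat lay below every 2 h rat. The 6 h mean of -0.12 ± 0.033 is 1.09-fold lower than the pool (adjusted p = 0.0304), and the 2 h mean of -0.046 ± 0.028 did not pass (adjusted p = 0.277). The difference between the times was -0.072 ± 0.041 (SE; adjusted p = 0.475). Leaving out 2 h rat 1 or any 6 h rat ended the 6 h call, with adjusted p of 0.0577 to 0.153 and means of -0.14 to -0.10. The fluor arrays alone ended it too (-0.079; adjusted p = 0.166), as did fitting each time alone (adjusted p = 0.0538), and subtracting neighbouring probes moved the value to -0.22 (adjusted p = 0.00558).

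Itga6 (CD49f), an alpha chain of laminin receptors, was the only gene of the set called at both times. Its rats stood at 0.14, 0.23 and 0.066 at 2 h, a mean of 0.15 ± 0.082 (1.11-fold; adjusted p = 0.0422). At 6 h they stood at 0.16, 0.11 and 0.21, a mean of 0.16 ± 0.047 (1.12-fold; adjusted p = 0.0312). The values of the 2 times overlap and differ by 0.013 ± 0.055 (SE; adjusted p = 0.943). Its 2 probes were unequal: the first averaged 0.042 ± 0.051 at 2 h and 0.030 ± 0.0069 at 6 h, the second 0.25 ± 0.20 and 0.29 ± 0.095. In a fit of single probes the second passed at 6 h (adjusted p = 0.0357) and missed at 2 h (adjusted p = 0.0538), and the first passed at neither time (adjusted p = 0.346 and 0.499). The 2 h call was lost without any 1 of 5 rats, all but 2 h rat 3, with means of 0.10 to 0.15 and adjusted p of 0.0547 to 0.181. The 6 h call was lost without 2 h rat 1 or any 6 h rat, with means of 0.13 to 0.18 and adjusted p of 0.0553 to 0.143. On the flip arrays alone Itga6 read 0.076 at 2 h (adjusted p = 0.386) and 0.11 at 6 h (adjusted p = 0.153). Subtracting neighbouring probes ended both calls (adjusted p = 0.0771 and 0.136). Over its 20 alternatives the adjusted p ran from 0.00863 to 0.386 at 2 h and from 0.00534 to 0.153 at 6 h.

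The other 4 integrin subunits did not pass. Itgb4, the beta chain that pairs with Itga6, came nearest at 6 h, with rats at 0.17, 0.10 and 0.092 (mean 0.12 ± 0.045; adjusted p = 0.0551), after 0.030, -0.037 and 0.10 at 2 h (mean 0.032 ± 0.069; adjusted p = 0.551). Itga7, a laminin receptor chain best known from muscle, averaged -0.057 ± 0.091 and -0.000077 ± 0.046. Itga5, the alpha chain of the fibronectin receptor, averaged 0.069 ± 0.13 and -0.0012 ± 0.24, values set by arrays that disagree, as described further on. Itga1, a collagen receptor chain, averaged -0.48 ± 0.87 at 2 h, because the fluor array of 2 h rat 3 read -3.04. On the flip array of that rat Itga1 read 0.066, and the other 10 arrays lay between -0.16 and 0.18. With that array left out, an alternative chosen after seeing the value, Itga1 stood at 0.041 at 2 h (adjusted p = 0.451).

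None of the 5 tetraspanins passed at either time. Cd82 had the largest mean of the group, with rats at 0.16, 0.66 and -0.00064 at 2 h (mean 0.27 ± 0.34; adjusted p = 0.139) and 0.24, 0.48 and 0.46 at 6 h (mean 0.39 ± 0.13; 1.31-fold; adjusted p = 0.0581). It was above 0 on all 6 arrays at 6 h, with a mean of 0.61 on the fluor and 0.18 on the flip arrays. It passed at 6 h in 6 of 20 alternatives, with adjusted p of 0.00817 to 0.374 over the 20. Cd63, a tetraspanin of lysosomes and platelet granules, was nearest to the threshold at 2 h, with rats at 0.093, 0.059 and 0.11 (mean 0.087 ± 0.026; adjusted p = 0.0688), and at 0.070, 0.025 and 0.021 at 6 h (mean 0.038 ± 0.027; adjusted p = 0.354). Cd81, part of the B cell co-receptor, lay below 0 in all 6 rats, at -0.097, -0.017 and -0.077 at 2 h and at -0.21, -0.028 and -0.085 at 6 h (mean -0.11 ± 0.094; adjusted p = 0.104). The leukocyte tetraspanin Cd53 moved from -0.065 ± 0.033 to 0.035 ± 0.031 without overlap of the rats of the 2 times (difference 0.099 ± 0.041 SE; adjusted p = 0.331). Cd151, a partner of laminin-binding integrins, stood at -0.0077 ± 0.016 and -0.028 ± 0.077.

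Of the lymphocyte receptors and antigen-presenting molecules, Cd48 fell at 2 h and Cd7 at 6 h. Cd48 is the GPI-anchored ligand of CD2 and CD244. Its rats stood at -0.10, -0.29 and -0.27 at 2 h, a mean of -0.22 ± 0.10 (1.17-fold lower; adjusted p = 0.0357). At 6 h they stood at -0.096, -0.092 and 0.12, a mean of -0.023 ± 0.12 (adjusted p = 0.796). All 6 h rats lay above all 2 h rats, narrowly, and the difference of 0.20 ± 0.079 (SE) did not pass (adjusted p = 0.315). The 2 h call was lost without 2 h rat 2 (-0.19; adjusted p = 0.172), without 2 h rat 3 (-0.20; adjusted p = 0.111) and without 6 h rat 2 (-0.22; adjusted p = 0.0547), which leaves the 2 h values as they are. It was lost too on the flip arrays alone (-0.16; adjusted p = 0.165), with neighbouring probes subtracted (-0.19; adjusted p = 0.0631) and with probes lacking a single symbol also fitted (adjusted p = 0.0561). Over its 20 alternatives the adjusted p ran from 0.00818 to 0.172.

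Cd7, a T and NK cell receptor, read -0.023, -0.067 and -0.029 at 2 h and -0.15, -0.12 and -0.073 at 6 h. Every 6 h rat lay below every 2 h rat, and the 6 h mean of -0.11 ± 0.037 passed (1.08-fold lower; adjusted p = 0.0368). The difference of -0.073 ± 0.041 (SE) did not (adjusted p = 0.472). Leaving out any rat but 2 h rat 2 ended the 6 h call, with means of -0.13 to -0.095 and adjusted p of 0.0529 to 0.202. So did the fluor arrays alone (adjusted p = 0.0622), the flip arrays alone (adjusted p = 0.0916) and fitting each time alone (adjusted p = 0.0637), with means that stayed at -0.11. Cd1d1, which presents lipids to natural killer T cells, stood at -0.15, -0.16 and -0.097 at 2 h (mean -0.13 ± 0.031; adjusted p = 0.134). At 6 h it stood at -0.025, 0.0034 and 0.26 (mean 0.079 ± 0.16), all above the 2 h rats. It did not pass there (adjusted p = 0.337), and neither did the difference of 0.21 ± 0.078 (SE; adjusted p = 0.281). Cd5, a negative regulator of T cell receptor signals, averaged -0.056 ± 0.11 and -0.082 ± 0.061, and the B cell receptor inhibitor Cd72 -0.020 ± 0.032 and -0.027 ± 0.053.

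The largest rise belonged to Cd24, a small GPI-anchored, mucin-like protein of B cells and granulocytes. Its rats stood near 0 at 2 h, at 0.0085, -0.089 and 0.053 (mean -0.0093 ± 0.073; adjusted p = 0.956). At 6 h they stood at 0.33, 0.13 and 0.77, a mean of 0.41 ± 0.33 (1.33-fold; adjusted p = 0.0391). All 6 h rats lay above all 2 h rats. Both orientations gave like values within a rat, 0.31 and 0.36 in rat 2, 0.14 and 0.11 in rat 4, and 0.78 and 0.77 in rat 6, so the spread lies between rats. The difference between the times was 0.42 ± 0.15 (SE; adjusted p = 0.278). The 6 h call was lost without 6 h rat 2 (0.45; adjusted p = 0.128), without 6 h rat 6 (0.23; adjusted p = 0.0706) and without 2 h rat 1 or 2 h rat 3 (0.41 in both; adjusted p = 0.0607 and 0.0544). It was lost as well in 5 of the processing alternatives, with adjusted p of 0.0516 (arrays scaled) to 0.0954 (neighbouring probes subtracted) and means of 0.35 to 0.50.

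Cd55, decay-accelerating factor, which protects cells from complement, rose at 6 h and kept that call in more alternatives than any other gene of the set. Its rats read 0.12, 0.095 and 0.058 at 2 h (mean 0.092 ± 0.032; adjusted p = 0.165) and 0.33, 0.15 and 0.15 at 6 h (mean 0.21 ± 0.10; 1.16-fold; adjusted p = 0.0163). Every 6 h rat lay above every 2 h rat, but the difference of 0.12 ± 0.060 (SE) did not pass (adjusted p = 0.439). The 6 h call held in 18 of 20 alternatives and was lost without 6 h rat 2 (0.15; adjusted p = 0.0761) and on the fluor arrays alone (0.16; adjusted p = 0.0847). Its 3 probes ordered alike at both times: 0.16 ± 0.084, 0.10 ± 0.094 and 0.011 ± 0.017 at 2 h, and 0.37 ± 0.15, 0.20 ± 0.12 and 0.066 ± 0.080 at 6 h. In the fit of single probes the first and the second passed at 6 h (adjusted p = 0.00680 and 0.0469) and the third did not (adjusted p = 0.231).

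Cd164 (endolyn), a sialomucin of blood progenitors and leukocytes, fell at 6 h as the mean of 2 probes that disagreed. The gene mean stood at -0.034, 0.069 and 0.066 at 2 h (mean 0.034 ± 0.059; adjusted p = 0.524) and at -0.16, -0.14 and -0.24 at 6 h (mean -0.18 ± 0.056; 1.13-fold lower; adjusted p = 0.0153). The first probe averaged 0.27 ± 0.15 at 2 h, above 0 on all 6 arrays (adjusted p = 0.0288), and -0.060 ± 0.10 at 6 h (adjusted p = 0.516). The second averaged -0.20 ± 0.036 at 2 h (adjusted p = 0.00828) and -0.30 ± 0.054 at 6 h (adjusted p = 0.00132), below 0 on all 12 arrays. Each probe was lower at 6 h than at 2 h, by -0.32 ± 0.088 (SE) and -0.10 ± 0.046, neither past the threshold (adjusted p = 0.163 and 0.372). The gene mean differed between the times by -0.21 ± 0.051 (SE; adjusted p = 0.117). At 6 h it read -0.048 on the fluor arrays alone (adjusted p = 0.479), -0.19 without 6 h rat 2 (adjusted p = 0.0762) and -0.15 without 6 h rat 6 (adjusted p = 0.0835), in a range over 20 alternatives of 0.00133 to 0.479.

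Cd47, the signal that restrains phagocytes by binding SIRP alpha, and Cd52, a short GPI-anchored peptide of lymphocytes, did not pass. Cd47 stood at 0.030, 0.12 and 0.040 at 2 h (mean 0.064 ± 0.051) and at 0.0075, 0.11 and 0.0038 at 6 h (mean 0.039 ± 0.058). Its 2 probes differed by less than the larger of their SDs, at 0.036 ± 0.045 and 0.093 ± 0.071 at 2 h and 0.052 ± 0.034 and 0.026 ± 0.098 at 6 h. Cd52 averaged -0.0083 ± 0.19 and 0.012 ± 0.15. Sirpa, the receptor of Cd47, fell at both times, to -0.34 ± 0.070 (adjusted p = 0.00161) and -0.49 ± 0.050 (adjusted p = 0.000298), below 0 on all 12 arrays.

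**Figure D2:**
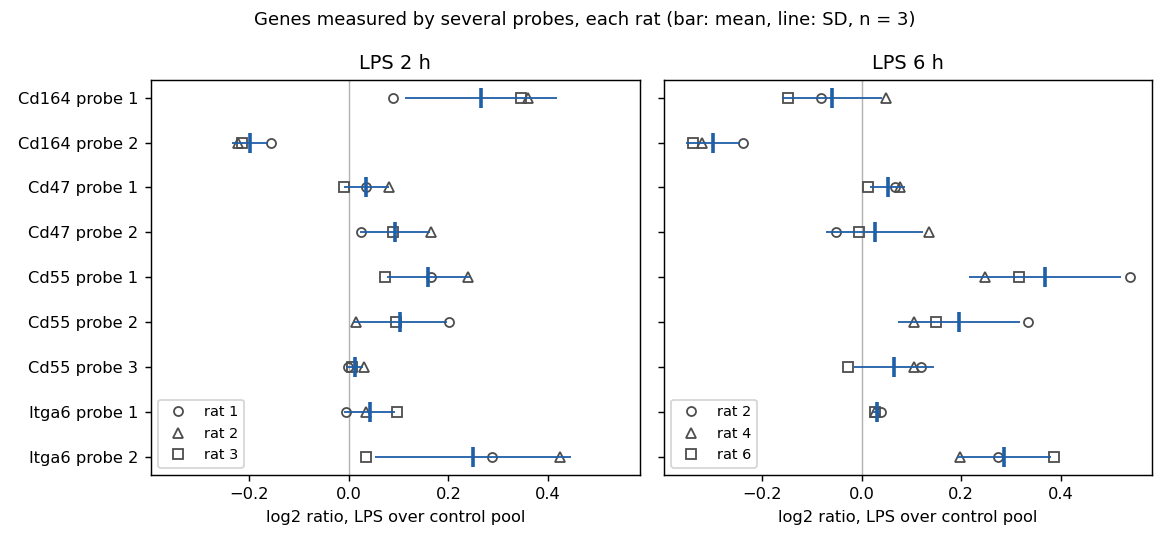
Log2 ratios of the single probes of the 4 genes measured by several probes, at 2 h (left) and 6 h (right); open symbols are rats, bars are means and lines the SD over 3 rats. The Cd164 probes lie on opposite sides of 0 at 2 h (0.27 and -0.20), the Cd55 probes keep their order, and the second Itga6 probe lies above the first.

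The 3 intracellular proteins are no surface antigens. Itgb1bp2 (melusin), known from striated muscle, binds the Itgb1 tail. It stood at 0.074, -0.015 and -0.066 at 2 h (mean -0.0022 ± 0.071) and at 0.21, 0.11 and 0.11 at 6 h (mean 0.14 ± 0.057; 1.10-fold; adjusted p = 0.0409), while Itgb1 itself fell at that time. The call was lost without any 1 of the 6 h rats, with means of 0.11 to 0.16 and adjusted p of 0.0909 to 0.212. It was lost as well on the fluor arrays alone (0.15; adjusted p = 0.0572), on the flip arrays alone (0.13; adjusted p = 0.0592) and in 4 other processing alternatives, with adjusted p of 0.0541 to 0.139. Cd2ap, an adaptor that links CD2 to the cytoskeleton, averaged 0.033 ± 0.032 and -0.0057 ± 0.058. Itgb3bp, a nuclear and centromere protein, averaged -0.017 ± 0.033 and -0.014 ± 0.020.

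Between the times the rats did not overlap for 9 of the 25 genes. In 6 of them (Cd1d1, Cd24, Cd48, Cd53, Cd55 and Itgb1bp2) every 6 h rat lay above every 2 h rat, as for 11.6% of all genes, and in 3 (Cd164, Cd7 and Itgal) below, as for 10.1%. None of these differences passed the threshold, and each also holds any difference between the 2 control pools. Intervals of the difference show what the data leave undecided: 0.061 to 0.78 for Cd24, -0.33 to -0.094 for Cd164 and -0.12 to 0.14 for Itga6 (95%, not adjusted).

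For several genes the fluor and flip arrays disagreed more than LPS and pool differed. Cd47 and Itga5 lay above 0 on all 3 fluor arrays and below 0 on all 3 flip arrays at both times, a pattern (in either order of the orientations) that 9.82% of all genes showed at 2 h. At 6 h Cd52 did the same, and Cd72 and Itga7 the reverse, which makes 5 of 25 genes, against 19.6% of all genes. Itga5 was the clearest: its fluor arrays averaged 0.27 ± 0.12 and its flip arrays -0.13 ± 0.13 at 2 h, and 0.37 ± 0.25 and -0.37 ± 0.24 at 6 h. Cd5 averaged -0.23 ± 0.051 on the fluor and 0.064 ± 0.076 on the flip arrays at 6 h.

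In a limma test of the fluor minus flip difference divided by 2, which equals multiplying the flip arrays by -1, 2 of 25 genes passed at 2 h (Itga5 at 0.20 and Cd47 at 0.11), against 14.2% of all genes. At 6 h 8 passed, against 37.1% of all genes: Itga5 (0.37), Cd82 (0.21), Cd52 (0.19), Cd47 (0.16) and Cd164 (0.13) above 0, and Cd5 (-0.15), Cd72 (-0.14) and Itga7 (-0.13) below. If the deposited direction holds for all arrays, these values are differences between the orientations divided by 2. The full difference of Itga5 at 6 h was 0.73. Of the genes called at 6 h in the averaged arrays, Cd164 alone passed here too, with the other sign. Cd24 (-0.0038), Cd7 (0.00084), Itgb1bp2 (0.0097), Itgb1 (-0.021), Itgal (0.039), Itga6 (0.045) and Cd55 (-0.048) lay near 0.

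**Figure D3:**
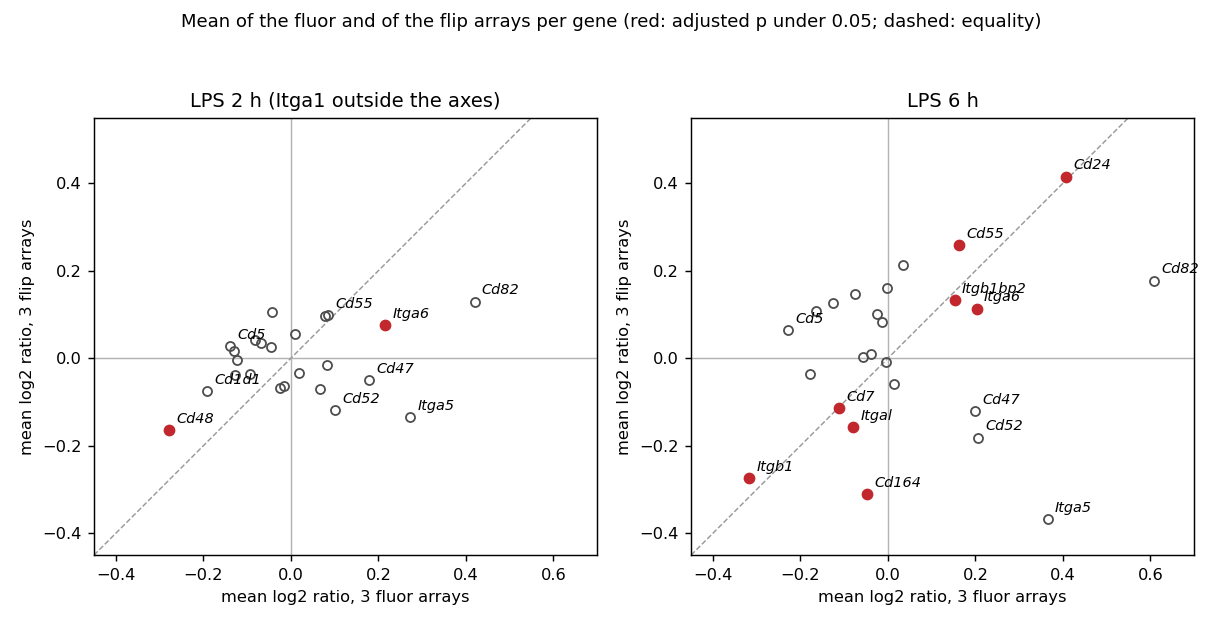
Mean log2 ratio of the 3 fluor arrays (horizontal) and of the 3 flip arrays (vertical) for each gene at 2 h (left) and 6 h (right); red points passed the threshold and the dashed line marks equal means. Cd24, Itgb1 and Cd7 lie on or near the line at 6 h, whereas Itga5 (0.37 and -0.37), Cd52 and Cd47 lie in the quadrant of opposite signs; Itga1 at 2 h (-1.05 and 0.099) lies outside the axes.

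Promoters are shown for the genes with the largest called rise (Cd24) and falls (Itgb1 at 6 h, Cd48 at 2 h), to set their letters beside the values above. The sequences are those of RefSeq on GRCr8, 300 bases around the gene's start, 5′ to 3′ on the gene's strand. Capitals mark matches on either strand to the NF-kappaB consensus or to 3 shorter motifs, the AP-1 site TGANTCA, the ETS core AGGAAG and the GAS element TTCNNNGAA. The Cd24 window is chr20:48656227-48656526 on the + strand, that of Itgb1 chr19:73602027-73602326 on the + strand and that of Cd48 chr13:86717744-86718043 on the + strand.
Cd24: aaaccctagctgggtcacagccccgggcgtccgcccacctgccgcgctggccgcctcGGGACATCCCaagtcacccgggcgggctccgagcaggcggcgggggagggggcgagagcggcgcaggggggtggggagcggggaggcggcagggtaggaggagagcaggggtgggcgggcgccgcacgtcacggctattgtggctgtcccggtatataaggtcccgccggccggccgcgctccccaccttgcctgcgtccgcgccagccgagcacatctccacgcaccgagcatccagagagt
Itgb1: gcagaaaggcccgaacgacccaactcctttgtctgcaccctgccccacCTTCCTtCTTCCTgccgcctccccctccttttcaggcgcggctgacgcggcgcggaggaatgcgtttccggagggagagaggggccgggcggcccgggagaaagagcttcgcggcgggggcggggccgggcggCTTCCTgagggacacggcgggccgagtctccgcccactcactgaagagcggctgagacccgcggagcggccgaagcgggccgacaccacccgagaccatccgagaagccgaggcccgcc
Cd48: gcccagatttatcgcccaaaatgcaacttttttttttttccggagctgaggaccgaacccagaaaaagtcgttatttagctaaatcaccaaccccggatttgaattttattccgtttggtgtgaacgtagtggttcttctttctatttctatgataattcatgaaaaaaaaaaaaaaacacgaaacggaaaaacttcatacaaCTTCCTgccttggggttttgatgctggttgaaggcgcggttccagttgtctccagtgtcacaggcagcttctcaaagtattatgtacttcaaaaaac

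The Cd24 window holds 1 match to the NF-kappaB consensus, GGGACATCCC. Itgb1 has 3 matches to the ETS core, each read on the other strand as CTTCCT, and Cd48 has 1. Bases G and C make up 74.0% of the Cd24 window, 71.7% of that of Itgb1 and 39.3% of that of Cd48. A promoter of this length was found for 18 of the 25 genes. The ETS core occurred in 7 of the 18 (Cd164, Cd48, Cd5, Cd53, Cd63, Itgb1 and Itgb1bp2), beside 34.3% of 27457 rat promoters. The NF-kappaB consensus occurred in 2 (Cd24 and Itga5), beside 4.16%, the GAS element in 3 (Cd52, Itga5 and Itgb3bp), beside 8.68%, and the AP-1 site in 1 (Cd63), beside 7.33%. A match is a description of letters, not a bound site.

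Other CD molecules, not all of them of leukocytes, go by different symbols. Of 22 measured, 4 rose and 3 fell at 2 h and also at 6 h, not all of them the same genes. Gp9, which rose at 2 h (0.18; adjusted p = 0.0404), is also 1 of the platelet markers below. Beside the counts of each list stand the shares of all named genes. At 2 h 9.34% of them rose and 9.82% fell, and at 6 h 8.3% and 10.7%. Ptprc (CD45), carried by all nucleated blood leukocytes, fell to -0.22 ± 0.036 at 2 h (adjusted p = 0.0163) and -0.38 ± 0.11 at 6 h (adjusted p = 0.00171), below 0 on all 12 arrays. The inhibitory Fc receptor Fcgr2b stood at -0.023 ± 0.033 at 2 h and rose by 6 h to 0.24 ± 0.091 (adjusted p = 0.00658). Of 14 measured integrin ligands and matrix genes 0 rose and 1 fell at 2 h, and 1 rose and 1 fell at 6 h. Of 22 measured genes that link integrins to the cytoskeleton or to kinases (Itgb3bp is among them), 2 rose and 1 fell at 2 h and 5 rose and 3 fell at 6 h. Among these Vasp, an actin filament elongation factor, rose by 1.08 ± 0.28 at 2 h (adjusted p = 0.00153) and 0.69 ± 0.23 at 6 h (adjusted p = 0.00755). Csk, the kinase that inhibits Src family kinases, fell to -0.42 ± 0.12 (adjusted p = 0.00219) and -0.32 ± 0.062 (adjusted p = 0.00591). In the list of T cell receptor signalling, 3 of 7 fell at 2 h and 4 of 7 at 6 h. At either time 0 rose. The falls were Csk, Ptprc and Ptpn22 at both times and Vav1 at 6 h. Ptprc and Csk are the genes described above, counted here again. Of 3 measured LPS recognition genes Tlr4 rose at 6 h (0.17 ± 0.094; adjusted p = 0.0247).

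Markers of the blood cell types moved as well, and their part in the results above was not tested. T cell markers (4 of 20 listed were measured: Cd3d, Cd5, Lef1 and Tcf7) had rat medians of -0.30 to -0.23 at 2 h and -0.43 to -0.15 at 6 h, with 2 of 4 down at each time. B cell markers (3 of 15, Cd37, Cd72 and Blnk) had rat medians of -0.19 to -0.11 and -0.19 to -0.063, with 2 down at 2 h and 1 at 6 h. Monocyte and macrophage markers (4 of 15) had rat medians of -0.21 to -0.088 and -0.14 to -0.062, with 1 and 2 down. Neutrophil markers (8 of 23) had rat medians of 0.25 to 0.36 at 2 h and -0.0014 to 0.25 at 6 h, with 4 up and 1 down at 2 h and 4 up at 6 h. Of 5 NK and cytotoxic markers 2 rose at each time, with rat medians of -0.065 to 0.080 and -0.015 to 0.058. Of 8 erythroid markers 4 rose and 1 fell at 2 h and 3 fell at 6 h, with rat medians of 0.14 to 0.47 and -0.017 to 0.33. The 3 that fell at 6 h were Hba-a1, Hbb and Hbb-b1. Alas2 (0.30), Car2 (0.28), Add2 (0.25), Slc4a1 (0.15) and Epb42 (0.15) had means above 0 at 6 h that did not pass. The 2 measured platelet markers had rat medians of 0.071 to 0.38 and -0.42 to -0.025. Cd5 and Cd72 belong to these lists and to the genes described here. Lcn2 and Il1r2, among the neutrophil markers that rose, also served above to read the direction of the ratios. The neutrophil marker S100a9 stood at 2.98 at 2 h and 2.70 at 6 h, whereas S100a8 stood at -0.083 and -0.053. The shares of all named genes given for the lists above also stand beside these counts.

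**Figure D4:**
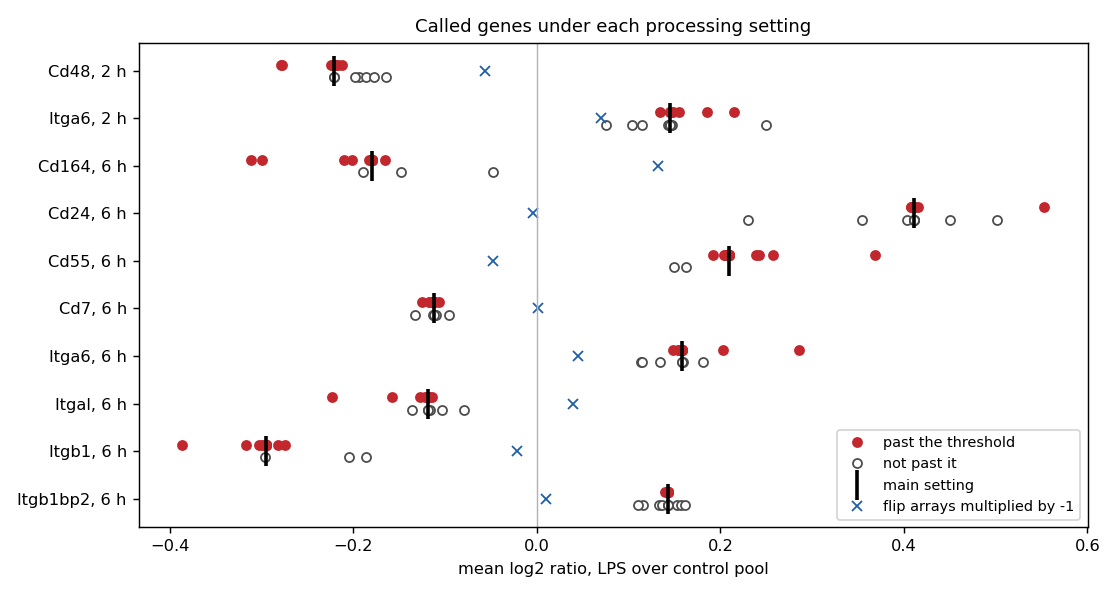
Mean log2 ratio of each gene called at 2 h or 6 h under the main setting (black bar), under its 19 or 20 alternative settings (red where past the threshold, open where not) and with the flip arrays multiplied by -1 (blue cross). All red and open points keep the sign of the main setting, and Cd55, Cd164 and Itgb1 at 6 h have the most red points (18, 17 and 17). The blue crosses of Cd164, Cd24, Cd55, Cd7 and Itgal at 6 h have the other sign.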

How the data were processed

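The values the authors deposited are log2 ratios of a probe's 2 channels on each array. The log base was found by raising 2 to each value: of results under 5, 100% came within 0.05 of a step of a whole number of steps of 0.0001. Of the dyes, scanner, background correction and normalization nothing is given in the sources used here. The medians of the arrays, -0.020 to 0.0083, show centring near 0 by an unknown method. No intensities were at hand, so no probe could be checked against background, and the number of arrays limits the precision.

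Gene names come from the platform's annotation, which can be old: 4190 of 7200 had 1 symbol, 46 several and 2964 none. Values were averaged over probes of one symbol and then over both arrays of a rat, as deposited. Limma 3.58.1 (lmFit and eBayes, R 4.3.3) fitted the 3939 gene means of all 6 rats as 2 groups with 4 residual degrees of freedom. The contrasts were each time against 0, and 6 h minus 2 h. Benjamini-Hochberg adjusted p under 0.05 over all genes was the threshold. The pool counts as 1 control sample, so its own spread is left out, and the difference of the times includes any difference between the pools. Genes passing any contrast, with several probes, or among the 3 nearest misses at a time are given by rat. The genes and lists were chosen with earlier results of these data known. The scripts were tested on simulated data. Alternatives covered the arrays used, their direction, normalization, neighbouring probes, repeated values, filters, probe choice, symbols and each rat left out.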

Additional observations from a re-analysis of the deposited data

How the results depend on the processing

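The count of genes called at 2 h was 2 (19.2% of all genes were called). It was 4 on the fluor arrays alone (29.0% of all genes), 0 on the flip arrays alone (8.53%; limma; 5 at an unadjusted p under 0.05) and 1 with each time fitted alone (12.7%). It was 0 with probes lacking a single symbol also fitted (12.7%; 3 unadjusted) and 0 without the fluor array of 2 h rat 3 (5.56%; 1 unadjusted), a setting chosen after seeing the data. With 1 rat left out it ran from 0 to 2, while the all-gene share was as low as 8.2%. The count of 8 at 6 h (19.0% of all genes) became 5 with neighbouring probes subtracted (19.9%) and 3 without that fluor array (12.6%), and ran from 0 to 10 with 1 rat left out (7.77% to 23.5%). For 6 h minus 2 h the count was 0 in every setting run except a fit of single arrays with orientation as a term and each rat as a random block, where Cd164 alone passed (1 of 25; adjusted p = 0.0393; 3.33% of all genes), and with 1 rat left out it stayed at 0 (2 to 7 at an unadjusted p under 0.05). The cause of these shifts was not tested, beyond the fewer arrays or rats of some settings.

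With the flip arrays multiplied by -1, the other reading of the direction, 13 of 25 genes changed sign at 6 h and 9 at 2 h. Sign changes were not counted over all genes, so these counts describe no trait of the set. Under that reading the 5 LPS-induced genes above 0 on every array would take opposite signs in the fluor and flip arrays. The genes that changed sign at 6 h were Cd164 (0.13), Cd24 (-0.0038), Cd55 (-0.048), Cd7 (0.00084), Itga5 (0.37), Itgal (0.039), Cd1d1 (-0.082), Cd2ap (0.0020), Cd48 (0.037), Cd53 (-0.049), Cd63 (-0.063), Itga1 (-0.11) and Itgb4 (-0.089). Itga5 at 6 h was 0.37 on the fluor arrays alone and Cd47 at 6 h was -0.12 on the flip arrays alone, both past the threshold against the sign of the mean. Cd164 at 2 h was -0.20 from its probe with the larger ratios. Updating symbols changed no member. Of the 25 genes 13 lay at or above the median of the mean absolute ratio, as 1970 of 3939 genes do by construction. That setting gives no value for the others. No paired analysis was possible because the rats of the 2 times share only the number 2 in the labels.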
